A study of Mus musculus with 23 samples.

Results

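The comparison described here sets hybrid male mice of the cross B6xPWD against males of the cross B6xBALB/C, both born to B6 mothers. The members were taken by the cross named in the labels and are 9 of the 23 arrays of the study, 3 of B6xPWD and 6 of B6xBALB/C. The genome of the laboratory strain B6 derives mainly from Mus musculus domesticus, BALB/C is another classical laboratory strain, and PWD is an inbred strain of the subspecies Mus musculus musculus. With the female named first, by convention, males of both crosses carry the B6 X chromosome. B6xPWD males carry the PWD Y and a paternal PWD set of autosomes, and B6xBALB/C males carry the BALB/C Y and a paternal BALB/C set. All animals were 14.5 days old, and each array held RNA from a pool of 4 testes after the tunica had been removed and spermatogenic cells isolated, per the labels. For reference the text also uses the reciprocal hybrid PWDxB6 (3 arrays) with its control PWDxPWK (2 arrays), the parental strains PWD (3 arrays) and B6 (3 arrays), and BALB/CxB6 (3 arrays), whose X comes from BALB/C.

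At this age the first wave of spermatogenesis has brought germ cells into meiotic prophase. In pachytene spermatocytes the X and Y, which pair over a short stretch only, are normally shut down in a compartment called the sex body, and failure of this silencing is a known feature of hybrid male sterility in crosses between mouse subspecies. Prdm9, a histone methyltransferase that places recombination sites, is the known hybrid sterility gene of these crosses, and the B6xPWD direction is known from the field as the more fertile one.

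Expression was read as log2 levels, and 14745 genes were tested with limma, of which 474 were X-linked, 8 Y-linked and 14221 autosomal. All 19 synapsis and cohesin genes on the array passed the filter on dim genes, as did 28 of 30 pachytene spermatocyte genes and 11 of 18 spermatid genes. All 24 Sertoli cell genes on the array passed it too. Passing means only that a gene's mean over all arrays was at or above log2 5.125, the level that leaves out the lowest 25% of genes. In such bulk samples fewer cells of a type and less RNA per cell cannot be told apart. The B6xBALB/C arrays were uneven in their meiotic content. The mean of the pachytene list, relative to all 23 arrays, was 0.22, 0.56 and 0.04 on the B6xPWD arrays, against -0.68 (lowest), 0.76 (median) and 0.94 (highest) on the 6 B6xBALB/C arrays. Replicate 6 was the lowest of these, and replicate 4 came next at 0.26. The B6xPWD arrays lay inside the range of the B6xBALB/C arrays. Several results that depend on this spread are given with B6xBALB/C replicates 1 to 3 alone and 4 to 6 alone.

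Of the 14745 genes, 1371 differed between B6xPWD and B6xBALB/C at a limma adjusted p under 0.05, which is 9.3%. There were 851 genes higher in B6xPWD (5.77%) and 520 lower (3.53%). The arrays of the groups did not overlap for 1097 of these 1371 genes, and over all tested genes 13.8% had groups without overlap, 5.44% with B6xPWD lower. The median difference over all genes was -0.01. With BALB/CxB6 in place of B6xBALB/C the count was 272 (1.84%). It was 570 without B6xPWD replicate 2 and 889 without B6xPWD replicate 1. The count of higher and lower genes was 647 and 741 with B6xBALB/C replicates 1 to 3 alone, and 864 and 526 with replicates 4 to 6 alone.

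The Y-linked genes, whose Y came from PWD in the hybrids and from BALB/C in the controls, were mostly higher in B6xPWD. Of 8 tested, 6 were higher in B6xPWD and 0 lower, where 5.77% of all genes were higher. Zfy1 and Zfy2 encode zinc-finger proteins of the Y, and their expression during pachytene, when silencing of the sex chromosomes fails, is known in the mouse to accompany the loss of spermatocytes. Zfy1 stood at 7.70, 8.34 and 8.58 on the B6xPWD arrays, against 6.14 (lowest), 6.56 (median) and 6.77 (highest) on the B6xBALB/C arrays. Zfy2 stood at 7.93, 8.48 and 8.93 on the B6xPWD arrays, against 6.69 (lowest), 6.76 (median) and 6.91 (highest) on the B6xBALB/C arrays. Every B6xPWD array lay above every B6xBALB/C array for both genes. The difference was 1.67 for each, which is 3.19-fold (SE 0.197, limma adjusted p = 1.21e-05 for Zfy1 and SE 0.167, limma adjusted p = 1.17e-06 for Zfy2). The copies are near-identical and may share probes, so a level for either alone is uncertain.

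Eif2s3y, a translation factor subunit known in the mouse to be needed for the proliferation of spermatogonia, averaged 9.76 ± 0.19 (SD, n = 3) in B6xPWD and 9.08 ± 0.09 (SD, n = 6) in B6xBALB/C, a difference of 0.68 (limma adjusted p = 2.41e-05). Usp9y, a ubiquitin protease, rose by 0.66 (limma adjusted p = 0.00929), Uba1y, a ubiquitin-activating enzyme, by 0.53 (limma adjusted p = 0.0189), and Uty, a histone demethylase homologue, by 0.47 (limma adjusted p = 0.0133). These calls leaned on single arrays. Without B6xPWD replicate 3 the limma adjusted p was 0.0605 for Usp9y, 0.0912 for Uba1y and 0.126 for Uty, and for Uba1y it was 0.0662 without B6xPWD replicate 2. The histone demethylase gene Kdm5d differed by 0.18 (limma adjusted p = 0.498) and the sex-determining gene Sry by -0.33 (limma adjusted p = 0.119). Against BALB/CxB6, which carries a B6 Y, the differences of Zfy1 and Zfy2 were 1.61 (limma adjusted p = 0.000246) and 1.70 (limma adjusted p = 1.27e-05). There 3 of the 8 genes were higher, where 1.11% of all genes were.

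The X chromosome, which came from B6 in both crosses, held a larger share of genes higher in B6xPWD than any autosome. Of 474 X-linked genes 90 were higher (19%) and 3 lower (0.633%), with a median difference of 0.16 and 76.6% of differences above 0. Of 14221 autosomal genes 753 were higher (5.29%) and 516 lower (3.63%), and the share of higher genes on single autosomes ran from 3.89% on chromosome 19 to 8.82% on chromosome 13. With B6xBALB/C replicates 1 to 3 alone 66 X-linked genes were higher and 3 lower, and with replicates 4 to 6 alone 87 were higher and 9 lower. The X-linked count was 45 without B6xPWD replicate 2, 51 without B6xPWD replicate 3, and 110 with the pachytene score of each array as a covariate.

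**Figure D1:**
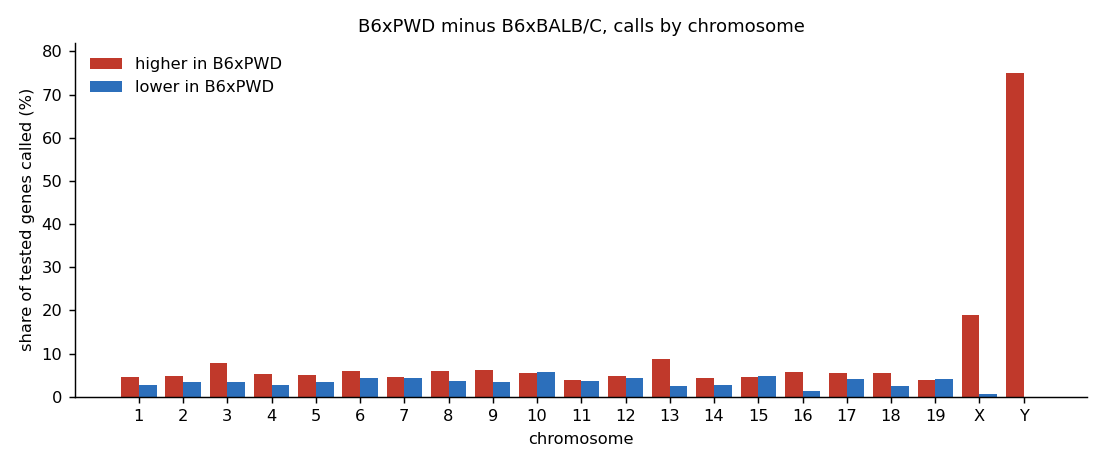
Share of tested genes called higher (red) and lower (blue) in B6xPWD than in B6xBALB/C on each chromosome, in percent (limma, adjusted p under 0.05). The X has 19% of its 474 genes higher and 0.633% lower, and the 8 Y-linked genes have 6 higher.

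The same shift was summarised on each array as the mean log2 level of all X-linked genes minus that of all autosomal genes. Unlike the list means, this score was not set relative to all arrays, so 0 is not their average. This score was 0.096, 0.132 and 0.277 on the B6xPWD arrays, against -0.110 (lowest), -0.052 (median) and 0.071 (highest) on the B6xBALB/C arrays. The groups did not overlap. The means were 0.169 ± 0.096 (SD, n = 3) in B6xPWD and -0.037 ± 0.072 (SD, n = 6) in B6xBALB/C, a difference of 0.206 (two-sided exact permutation p = 0.0119, the smallest that 84 regroupings can give). With B6xBALB/C replicates 1 to 3 alone the difference was 0.219 and with replicates 4 to 6 alone 0.193, each with an exact permutation p of 0.1, the smallest that 3 arrays against 3 can give.

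The size of the X shift depended on which laboratory cross stood as the control. The scores of the BALB/CxB6 arrays were 0.092, 0.071 and 0.137, which overlap the B6xPWD arrays, and those of the B6 parents were 0.083, -0.014 and 0.061. Against BALB/CxB6 the median difference of the X-linked genes was 0.02, with 17 higher and 3 lower, where 1.11% of all genes were higher. BALB/CxB6 itself lay above B6xBALB/C for 80.6% of X-linked genes (median 0.14), although its X comes from BALB/C, and 4 X-linked genes were higher there and 3 lower, where 0.0814% and 0.359% of all genes were. The pachytene list also moved between these groups. B6xBALB/C replicates 1, 2 and 5, with pachytene means of 0.87, 0.94 and 0.83, had the lowest X scores, -0.102, -0.070 and -0.110, and replicate 6, with -0.68, had the highest. B6xPWD replicate 1 and B6xBALB/C replicate 4, with pachytene means of 0.22 and 0.26, had X scores of 0.096 and -0.034. The part of germ cell stage in the X shift beyond these values was not tested.

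**Figure D2:**
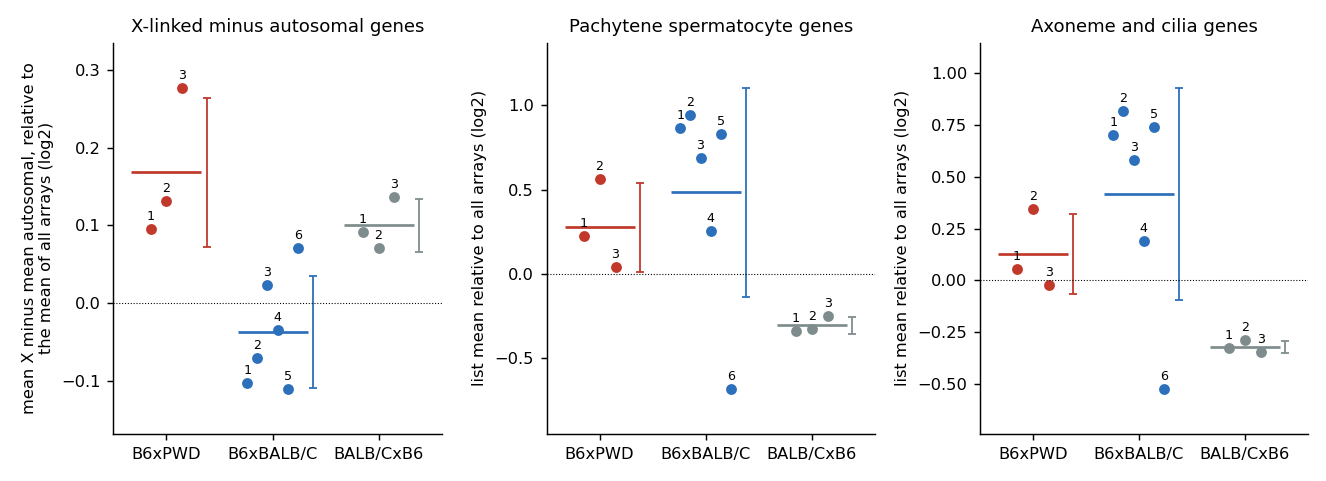
Per-array scores on the log2 scale for B6xPWD, B6xBALB/C and BALB/CxB6, with points numbered by replicate, lines at group means and bars of 1 SD. The list means are relative to all arrays. The X score is not, although its axis label says so. The X score separates B6xPWD (0.096 to 0.277) from B6xBALB/C (-0.110 to 0.071) but not from BALB/CxB6, and the pachytene and axoneme means of B6xBALB/C replicate 6 lie far below those of the other replicates.

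Among the largest X-linked rises was a gene also raised in the reciprocal hybrid. 1700080O16Rik, an X-linked gene without a known role, stood at 8.11, 8.71 and 8.64 on the B6xPWD arrays, against 5.86 (lowest), 6.52 (median) and 6.89 (highest) on the B6xBALB/C arrays. The groups did not overlap, and the difference was 1.99, or 3.97-fold (SE 0.195, limma adjusted p = 8.81e-07). Magea5, of a family of cancer and germ cell antigens, stood at 7.02, 7.62 and 7.10 on the B6xPWD arrays, against 5.05 (lowest), 5.46 (median) and 6.01 (highest) on the B6xBALB/C arrays. Its difference was 1.79 (SE 0.289, limma adjusted p = 0.000484), and 1.11 (limma adjusted p = 0.0961) against BALB/CxB6, whose arrays reached 6.70.

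Cfap47, a gene of the sperm tail, was higher by 1.37 (limma adjusted p = 7.18e-05), 4930550L24Rik by 1.14 (limma adjusted p = 0.000738) and 3830403N18Rik by 1.13 (limma adjusted p = 0.0089). Against BALB/CxB6 these differences were 1.46, 0.39 and 0.92 (limma adjusted p = 0.000381, 0.41 and 0.123). 3830403N18Rik averaged 6.23 in B6xPWD and 5.1 in B6xBALB/C, under the dim filter, and its call was lost without B6xPWD replicate 2 (limma adjusted p = 0.0643) or replicate 3 (limma adjusted p = 0.0515). The X-linked genes that fell were Mid1, a ubiquitin ligase bound to microtubules (-0.57), Bcorl1, a transcriptional corepressor (-0.35), and Ccdc120, a coiled-coil protein (-0.32). None of these 3 calls was kept with each array left out, and the highest limma adjusted p was 0.0760 for Mid1, 0.234 for Bcorl1 and 0.0884 for Ccdc120, each without B6xPWD replicate 2 or 3.

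Among X-linked genes known for expression in germ cells, 8 of 18 tested were higher in B6xPWD and 0 lower, where 19% of all X-linked genes were higher. The list's median difference was 0.39, against 0.16 over the X. On every array its mean lay higher in B6xPWD (0.31 to 0.39) than in B6xBALB/C (-0.17 to -0.01). Beside Magea5 these were 1700013H16Rik (1.02), Rhox13 (0.91), a homeobox gene of meiotic germ cells, Fmr1nb (0.87), Tsga8 (0.77), a chromatin protein of spermatids, Tktl1 (0.44), a transketolase-like enzyme, Taf7l (0.41), a germ cell form of a general transcription factor subunit, and Zfx (0.29), the X-linked partner of Zfy. Tktl1, Taf7l and Zfx lost their calls without B6xPWD replicate 2 or 3, with limma adjusted p up to 0.0903, 0.124 and 0.179. Against BALB/CxB6, 2 of the 18 were higher, where 3.59% of X-linked genes and 1.11% of all genes were. Rhox13 differed by 0.24 there (limma adjusted p = 0.513).

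Of 14 tested genes of the Mage family, grouped by symbol after the values were seen, 7 were higher and 0 lower, where 19% of X-linked genes and 5.77% of all genes were higher. Against BALB/CxB6, 2 of the 14 were higher, where 3.59% of X-linked genes and 1.11% of all genes were. Magea3 differed by 1.08 and Magea6 by 1.11, and the limma adjusted p of Magea6 was 0.0565 without B6xPWD replicate 2. Copies of this family are near-identical and may share probes. Tex11, an X-linked recombination gene needed for crossovers, stood at 10.07, 10.09 and 10.38 on the B6xPWD arrays and at 9.65 (lowest), 9.67 (median) and 10.07 (highest) on the B6xBALB/C arrays, a difference of 0.45 (limma adjusted p = 0.0532). The lowest B6xPWD array and the highest B6xBALB/C array, replicate 3, met at the same rounded level. Scml2, a Polycomb-type factor of the sex body encoded on the X, differed by 0.33 (limma adjusted p = 0.0678). Some X-linked genes have autosomal copies made by retroposition that are expressed in meiosis. Of the X-linked parents of such copies 5 of 8 were higher, Cetn2 (0.56), Rbmx (0.52), Cox7b (0.46), Tktl1 and Zfx, where 19% of all X-linked genes were higher. Tktl1 and Zfx are also among the X-linked germ cell genes above. The count was 1 of 8 with B6xBALB/C replicates 1 to 3 alone and 0 of 8 against BALB/CxB6, where 3.59% of X-linked genes were higher. Without B6xPWD replicate 2 the limma adjusted p was 0.0971 for Cetn2, 0.0643 for Rbmx and 0.270 for Cox7b. Of the autosomal copies 0 of 11 were called, with a median of 0.05, and 3 were higher with replicates 4 to 6 alone.

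The reciprocal hybrid PWDxB6, set against PWDxPWK, was used to see which of these genes also differed where the X was that of PWD. The 2 comparisons share no arrays. PWDxB6 minus PWDxPWK called 211 genes (1.43%), 141 higher (0.956%) and 70 lower (0.475%). In both comparisons 19 genes were higher, which is 2.23% of the 851 and 13.5% of the 141, and 0 genes were lower in both. The 19 held 9 X-linked genes, 1700080O16Rik, Ccnb3, Fndc3c1, Gm9, Maoa, Nxt2, Prame, Tktl1 and Tsga8, and both Zfy genes. None of the 19 had a called difference between the effects of the 2 hybrids. They were picked for effects in the same direction, which makes such a call less likely, so this says little about how alike the effects were. The count was 8 without PWDxPWK replicate 1, 11 with the stricter dim filter, and 30 without B6xBALB/C replicate 6, of which 10 were lower in both.

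Prame, an X-linked antigen of germ cells and tumours, stood at 6.07, 6.56 and 6.94 on the B6xPWD arrays, against 5.19 (lowest), 5.45 (median) and 5.56 (highest) on the B6xBALB/C arrays. It differed by 1.12 here (SE 0.174, limma adjusted p = 0.000346) and by 1.28 between PWDxB6 and PWDxPWK (limma adjusted p = 0.0019). Ccnb3, a cyclin of early meiosis, differed by 0.94 here and 1.02 there, and Nxt2, a factor of RNA export, by 0.94 and 0.86. Their arrays did not overlap between B6xPWD and B6xBALB/C. Gm9, without a known role, differed by 0.84 and 1.29, Tsga8 by 0.77 and 0.61, and Tktl1 by 0.44 and 0.64. Maoa, a monoamine oxidase (0.41 and 0.66), and Fndc3c1 (0.49 and 0.83) completed the X-linked genes, and their calls in the present comparison were lost without B6xPWD replicate 2 or 3, with limma adjusted p up to 0.124 and 0.157. Fndc3c1 averaged 5.53 in B6xPWD and 5.03 in B6xBALB/C, under the dim filter. Those genes of the 19 that the naming rule did not select, including Ccnb3, Nxt2, Gm9, Maoa and Fndc3c1, were named after their values were seen.

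The autosomal genes of the 19 were Defb15, a beta-defensin of the male tract, Pmaip1, which promotes apoptosis and is known as Noxa, 1700007K13Rik, Tafa1, Srgap1, Resf1, Plin2 and Smpd1. Defb15 stood at 6.73, 7.16 and 7.19 on the B6xPWD arrays, against 5.38 (lowest), 5.66 (median) and 6.13 (highest) on the B6xBALB/C arrays, a difference of 1.35 (SE 0.227, limma adjusted p = 0.000706), and of 1.65 in the reciprocal hybrid. Pmaip1 stood at 7.65, 7.89 and 7.86 on the B6xPWD arrays, against 6.85 (lowest), 7.10 (median) and 7.31 (highest) on the B6xBALB/C arrays. Neither gene had overlapping groups, and Pmaip1 differed by 0.70 (SE 0.108, limma adjusted p = 0.000317) here and by 0.60 in the reciprocal hybrid. The other differences here were 0.88 for 1700007K13Rik, 0.74 for Tafa1, 0.59 for Srgap1, 0.36 for Resf1, 0.32 for Plin2, which coats lipid droplets, and 0.28 for Smpd1, a sphingomyelinase. The last 3 calls were lost in several leave-one-out fits, with limma adjusted p up to 0.162 for Resf1, 0.178 for Plin2 and 0.122 for Smpd1.

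The 11 sex-linked genes that were higher in both comparisons were searched for short motifs in the 300 bases around their starts, 250 before and 50 after, from RefSeq on GRCm38.p6. The 5 letters CCGTT, part of the sequence known to be bound by transcription factors of the MYB family, were chosen after these sequences had been read, so their count is a description. On either strand CCGTT was present in 8 of the 11. Of all genes higher in both comparisons, 18 had a sequence, and the same 8 were the only ones with it (44.4%). It was present in 10 of 44 genes that went in opposite directions in the 2 comparisons (22.7%) and in 30 of 86 X-linked genes higher in B6xPWD (34.9%). It was also in 77 of 326 X-linked genes not called (23.6%), and in 2993 of 11671 tested genes with a sequence (25.6%). The hexamer AGGCCT, known as the core of the sequence bound by ZFX and ZFY, was present in 0 of the 11 and in 2 of the 18, Plin2 and Resf1. It was present in 7 of the 44 genes of opposite direction (15.9%), in 4 of 86 X-linked genes higher in B6xPWD (4.65%) and in 1474 of 11671 tested genes (12.6%). The windows that follow show the match nearest the start in each of the 8 genes, with up to 12 bases on each side, read 5′ to 3′ along the gene. Only that match, CCGTT or its reverse complement AACGG, is in capitals. The windows of Ccnb3 and Zfy1 each hold another CCGTT in small letters.
1700080O16Rik (chrX:51972767-51972795, minus strand): gactcaggccggCCGTTaggagcagccat
Ccnb3 (chrX:7041593-7041621, minus strand): ccgcgaggccggCCGTTactccgttgctg
Gm9 (chrX:37210992-37211013, minus strand): cttggggcagaaCCGTTggtgg
Nxt2 (chrX:142227851-142227879, plus strand): ttccccccccccCCGTTtctcgttggcct
Prame (chrX:135627684-135627712, minus strand): attgggcagggaCCGTTgaggggcagctt
Tktl1 (chrX:74177245-74177273, plus strand): cagctgaggcagCCGTTtagttctgcggc
Zfy1 (chrY:797369-797397, minus strand): tggtgaacatcaAACGGccgttactcaat
Zfy2 (chrY:2170580-2170608, minus strand): tttttgatgaatAACGGatatctgagatt

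Ccnb3 has 3 matches in its 300 bases, 1700080O16Rik and Zfy1 have 2 each, and the other genes shown have 1. Counted from the annotated start, with negative positions upstream, the matches of 1700080O16Rik, Tktl1, Prame, Ccnb3 and Zfy1 begin at -11, -2, 5, 10 and 24. That of Gm9 begins at 40, and those of Nxt2 and Zfy2 begin at -74 and -187. A match shows only that these letters are there.

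Genes that differed in opposite directions in the 2 comparisons were more numerous than those that differed in the same direction. Each difference is from the hybrid's own control, so opposite signs need not mean unlike levels in the 2 hybrids. There were 54 such genes, 20 higher and 34 lower in B6xPWD, with 0 on the X or Y. All 54 also differed between PWD and B6, and in each of them B6xPWD moved towards the PWD side. The median difference of the 20 was 0.74 in B6xPWD minus B6xBALB/C, -0.87 in PWDxB6 minus PWDxPWK and 1.23 in PWD minus B6. That of the 34 was -0.56, 0.83 and -1.37 in the same order. Over all 1371 called genes, 434 (31.7%) were also called between PWD and B6 in the same direction, 39 (2.84%) in the opposite direction, and 898 (65.5%) were not called there, where 18.4% of all genes were called, 10.4% higher and 8.04% lower in PWD. These 3 comparisons share no arrays, but they share each gene's estimate of the spread, so their calls are not independent. Of the 19 genes higher in both hybrids, 8 were higher in PWD than in B6 and 2 lower. Without B6xPWD replicate 2 the count of genes called here and between the parents was 234, and without replicate 1 it was 257. Whether sequence differences of PWD under the probes moved single values was not tested.

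**Figure D3:**
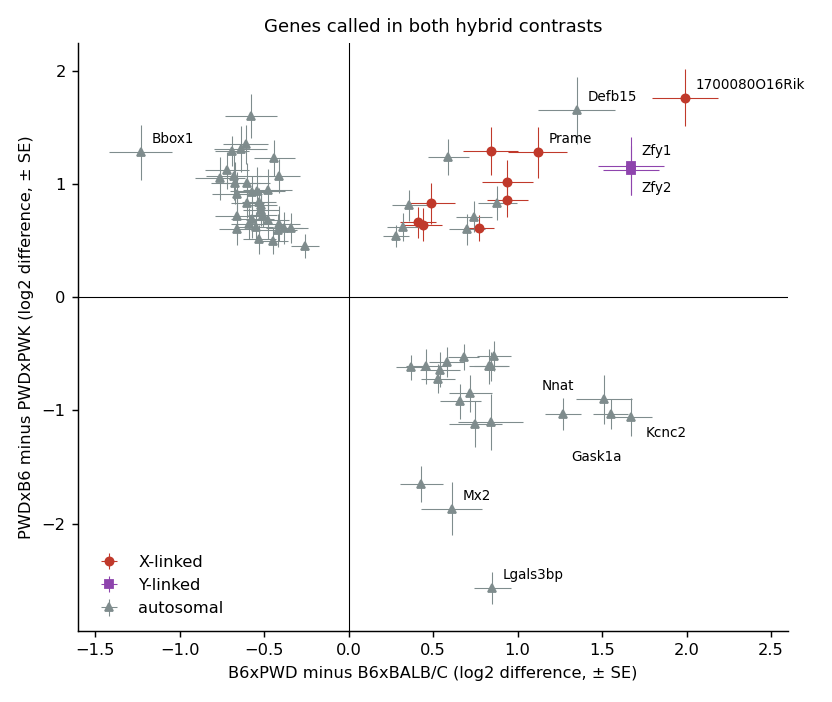
Log2 differences (± SE) of the 73 genes called in both comparisons, B6xPWD minus B6xBALB/C on the horizontal axis and PWDxB6 minus PWDxPWK on the vertical axis. The 9 X-linked and 2 Y-linked genes lie in the upper right of the plot with 8 autosomal genes, and the 54 genes of opposite direction are autosomal.

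Kcnc2, a voltage-gated potassium channel, was an example of the opposite pattern. It stood at 7.04, 7.18 and 7.55 on the B6xPWD arrays, against 5.32 (lowest), 5.52 (median) and 6.01 (highest) on the B6xBALB/C arrays, without overlap. The difference was 1.67 (SE 0.128, limma adjusted p = 1.47e-08), against -1.06 in the reciprocal hybrid and 2.63 between PWD (mean 8.32) and B6 (mean 5.69). Kcnc2 averaged 7.26 in B6xPWD and 7.08 in PWDxB6, against 5.58 in B6xBALB/C and 8.13 in PWDxPWK. Gask1a, a Golgi-associated kinase-like gene, stood at 6.96, 6.97 and 7.29 on the B6xPWD arrays, against 5.42 (lowest), 5.55 (median) and 5.64 (highest) on the B6xBALB/C arrays. The difference was 1.55 (SE 0.104, limma adjusted p = 2.40e-09) here and -1.03 in the reciprocal hybrid. Lgals3bp, a secreted galectin-binding glycoprotein, had the largest difference between the effects of the 2 hybrids, 3.42, made of 0.85 here and -2.57 in the reciprocal hybrid. In PWD minus B6 it differed by 2.65. It averaged 7.05 in B6xPWD and 6.89 in PWDxB6, against 6.2 in B6xBALB/C and 9.46 in PWDxPWK.

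Several of the largest autosomal rises were not called in the reciprocal hybrid. Scn3b, a sodium channel subunit, stood at 6.68, 6.61 and 7.01 on the B6xPWD arrays, against 4.81 (lowest), 4.84 (median) and 5.14 (highest) on the B6xBALB/C arrays. Its groups did not overlap, and the difference was 1.87 (SE 0.132, limma adjusted p = 3.69e-09), against -0.24 in the reciprocal hybrid, and the difference between these effects was 2.11 (limma adjusted p = 1.46e-06). PWD stood at 6.98 and B6 at 4.96. Scn3b averaged 6.77 in B6xPWD and 4.89 in B6xBALB/C, and Gm14403 6.42 and 5.01, so each passed the dim filter of 5.125 only through groups where it was high. The exact size of such a difference is uncertain. Serpini1, a neuronal serine protease inhibitor (1.38, SE 0.098), Cadps, a factor of vesicle release (1.52, SE 0.237), and Gm14403, an uncharacterised gene (1.41, SE 0.198), also had PWD above B6, by 1.07, 2.22 and 1.78. From BALB/CxB6 they differed by 1.23, 0.86 and 1.47, and Cadps was not called there (limma adjusted p = 0.115). Rps3a1, a ribosomal protein whose processed copies may be read by the same probes, was 1.51 higher (SE 0.167). It went the other way in the reciprocal hybrid (-0.90, limma adjusted p = 0.0314), with means of 10.68 in B6xPWD and 9.88 in PWDxB6. Cd63, a tetraspanin of endosomes, was an exception, higher by 1.55 in B6xPWD (limma adjusted p = 0.000669) although PWD stood at 7.21 and B6 at 8.06, and it differed by 0.60 from BALB/CxB6 (limma adjusted p = 0.343).

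The largest fall was in Plbd1, a phospholipase B-like protein of lysosomes. It stood at 5.59, 5.26 and 5.63 on the B6xPWD arrays, against 7.46 (lowest), 7.66 (median) and 8.16 (highest) on the B6xBALB/C arrays. This is a 4.63-fold lower level in B6xPWD (log2 difference -2.21, SE 0.137, limma adjusted p = 9.41e-10), with no overlap. Both parents of B6xPWD were also low, with means of 5.09 in PWD and 5.94 in B6, while the BALB/CxB6 arrays stood at 8.12, 7.58 and 8.14. Serpina3a, a serine protease inhibitor, showed a like order of levels. It stood at 6.36, 7.02 and 6.42 on the B6xPWD arrays, against 8.08 (lowest), 8.38 (median) and 8.78 (highest) on the B6xBALB/C arrays, and at means of 6.79 in PWD and 5.96 in B6. The difference was -1.80 (SE 0.171, limma adjusted p = 5.60e-07).

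Tgfbi, an extracellular matrix protein induced by Tgfb, stood at 6.21, 6.14 and 6.4 on the B6xPWD arrays, against 7.30 (lowest), 7.53 (median) and 8.46 (highest) on the B6xBALB/C arrays, a difference of -1.39 (SE 0.163, limma adjusted p = 1.21e-05). Bbox1, which makes carnitine, fell by 1.23 on the log2 scale (limma adjusted p = 0.000286) and was one of the 54 genes of opposite direction, with 1.28 in the reciprocal hybrid. Asap2 (-1.03), Mpzl2 (-0.97), a cell adhesion protein, Ifna2 (-0.90), an interferon alpha gene of a family with like copies and a B6xPWD mean of 5.01, under the dim filter, Cyp1b1 (-0.86), Tmem267 (-0.86), Tgfb1 (-0.84) and Cd74 (-0.81), the invariant chain of MHC class II, had groups without overlap as well. Mpzl2 averaged 7.33 in B6xPWD, 7.23 in PWD and 7.2 in B6, against 8.3 in B6xBALB/C and 8.16 in BALB/CxB6. Asap2, Ifna2 and Tgfb1, by contrast, averaged lower in B6xPWD than in either parent. Nup210l, a nuclear pore protein of the testis, fell by 0.94 on the log2 scale (limma adjusted p = 0.00386) but differed by 0.03 from BALB/CxB6, whose mean was 6.97, and B6xBALB/C replicate 6, the array with the lowest pachytene mean, stood at 7.15. All of the 12 falls named here kept their calls with each array left out. Like Nup210l, Tmem267 was not called against BALB/CxB6 (-0.29, limma adjusted p = 0.415).

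**Figure D4:**
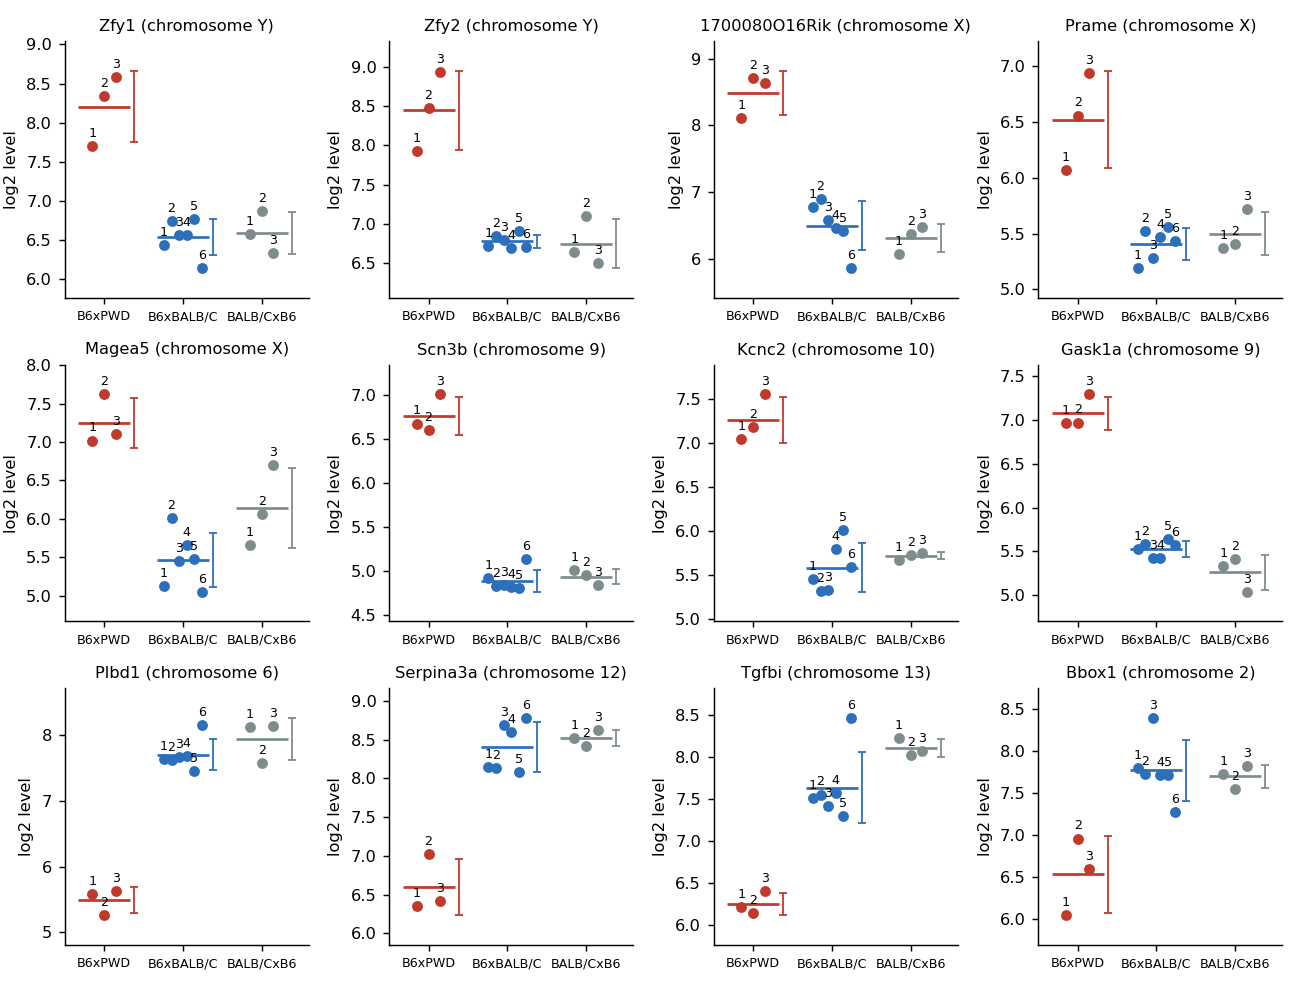
Log2 levels of 12 genes on each B6xPWD, B6xBALB/C and BALB/CxB6 array, with points numbered by replicate, lines at group means and bars of 1 SD. In every panel the 3 B6xPWD arrays lie on one side of all 6 B6xBALB/C arrays, and each panel has its own axis range.

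With all 6 B6xBALB/C arrays, the share of called genes was 5.26% in the synapsis list, 10% in the recombination list, 10.5% among sex-body factors and 7.14% in the pachytene list, against 9.3% of all genes. Of 19 synapsis and cohesin genes 1 was higher and 0 lower. It was Rec8, the meiotic cohesin subunit, at 8.28, 8.23 and 8.61 on the B6xPWD arrays, against 7.35 (lowest), 7.65 (median) and 7.91 (highest) on the B6xBALB/C arrays (difference 0.73, SE 0.125, limma adjusted p = 0.000837). The groups did not overlap, and the difference from BALB/CxB6 was 0.34 (limma adjusted p = 0.253). With B6xBALB/C replicates 1 to 3 alone 1 of the 19 synapsis and cohesin genes was higher and 4 lower. With replicates 4 to 6 alone 3 were higher and 0 lower. Syce1, of the central element of the synaptonemal complex, differed by -0.42 (limma adjusted p = 0.0511). Of 20 recombination genes 2 were higher and 0 lower: Rec114, needed for meiotic double-strand breaks (0.55, limma adjusted p = 0.0135), and Tex15, a germ cell gene of recombination and transposon silencing (0.42, limma adjusted p = 0.0076). Without B6xPWD replicate 3 the limma adjusted p was 0.0543 for Rec114 and 0.0558 for Tex15, and without replicate 2 it was 0.109 for Rec114. From BALB/CxB6 Rec114 differed by 0.47 (limma adjusted p = 0.136) and Tex15 by 0.06 (limma adjusted p = 0.844). Prdm9 stood at 7.67, 7.65 and 8.17 on the B6xPWD arrays, against 7.91 (lowest), 7.99 (median) and 8.30 (highest) on the B6xBALB/C arrays. Those groups overlapped, with a difference of -0.24 (SE 0.138, limma adjusted p = 0.291), while PWD was above B6 by 0.77 (limma adjusted p = 0.00158).

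Of 19 sex-body silencing factors Rbmx was higher and Mdc1, which spreads the damage mark over the X and Y, was lower (-0.46, limma adjusted p = 0.0339). The call of Mdc1 was lost in 7 of 9 leave-one-out fits, and it differed by 0.11 from BALB/CxB6. Of these 19 factors 0 were higher and 2 lower with B6xBALB/C replicates 1 to 3 alone, and 1 and 0 with replicates 4 to 6 alone. Of 20 spermatogonial genes Sohlh1, a transcription factor of early germ cells, was higher (0.49, limma adjusted p = 0.0429), with limma adjusted p = 0.176 without B6xPWD replicate 1 and a difference of -0.01 from BALB/CxB6. The share called in this list was 5%, against 9.3% of all genes. Of 18 piRNA pathway genes, which silence transposons, and of 11 spermatid genes 0 were called, with medians of -0.16 and 0.04. Acr, the acrosomal protease acrosin, differed by -0.71 (limma adjusted p = 0.104). At an unadjusted p under 0.05, 3740 genes in all would be called.

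The later meiotic lists turned on the choice of B6xBALB/C arrays. Of 28 pachytene spermatocyte genes 1 was higher (Cdk1, the mitotic and meiotic kinase, 0.47) and 1 lower (Spata16, an acrosome gene, -1.18) with all 6 arrays. With B6xBALB/C replicates 1 to 3 alone 0 were higher and 13 lower, with replicates 4 to 6 alone 2 were higher and 0 lower, and without replicate 6 the counts were 2 and 11. Of 34 axoneme and cilia genes 2 were higher, Cfap47 and Efhc2 (0.51), both on the X, and 3 lower, Dnah1 (-0.88), a dynein heavy chain, Tekt1 (-0.66) and Spef2 (-0.38). The share called in that list was 14.7%, against 9.3% of all genes. The axoneme counts were 1 higher and 21 lower with replicates 1 to 3 alone, 3 and 0 with replicates 4 to 6 alone, and 2 and 19 without replicate 6. Of the piRNA genes 0 were higher and 7 lower with replicates 1 to 3 alone, and 0 were called with replicates 4 to 6 alone.

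Spata16 shows this spread. It stood at 5.34, 6.43 and 5.43 on the B6xPWD arrays, against 5.29 (lowest), 7.17 (median) and 7.76 (highest) on the B6xBALB/C arrays, where replicate 6 was the lowest and lay below all B6xPWD arrays. Against BALB/CxB6 it differed by 0.28 and Dnah1 by 0.02. The calls of Cdk1, Spata16, Tekt1 and Spef2 were lost in leave-one-out fits, with limma adjusted p up to 0.114, 0.126, 0.201 and 0.262, and that of Efhc2 without B6xPWD replicate 3 (limma adjusted p = 0.117). Cox7b2, a testis form of a respiratory chain subunit, went the other way, with 8.47, 8.71 and 7.77 on the B6xPWD arrays and 5.98 (lowest), 7.47 (median) and 8.12 (highest) on the B6xBALB/C arrays (difference 0.98, limma adjusted p = 0.0503).

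Imprinted genes, which are expressed from the chromosome of one parent, bear on a comparison in which the paternal autosomes differ. Of 16 paternally expressed genes 2 were higher and 1 lower, where 5.77% and 3.53% of all genes were. Nnat, a small membrane protein, stood at 7.43, 7.28 and 7.28 on the B6xPWD arrays, against 5.86 (lowest), 5.95 (median) and 6.38 (highest) on the B6xBALB/C arrays, a difference of 1.27 (SE 0.108, limma adjusted p = 8.13e-08). In the reciprocal hybrid, whose paternal set comes from B6, Nnat differed by -1.03, and PWD (mean 7.49) lay above B6 (mean 6.23) by 1.26. Sgce, a sarcoglycan, was higher by 0.58 (SE 0.088, limma adjusted p = 0.000248) and Nap1l5 lower by -0.35 (limma adjusted p = 0.0341, and 0.209 without B6xPWD replicate 2). Of 14 maternally expressed genes 1 was higher, Cdkn1c, an inhibitor of the cell cycle (0.55, limma adjusted p = 0.0132, and 0.0937 without B6xPWD replicate 2).

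Of 19 interferon response genes 3 were higher in B6xPWD and 0 lower, with a median of 0.06, where 5.77% of all genes were higher: Bst2, which tethers viruses to the membrane (0.72, limma adjusted p = 0.000958), Mx2 (0.61, limma adjusted p = 0.0366) and Rtp4 (0.43, limma adjusted p = 0.0355). Bst2 stood at 7.88, 7.79 and 7.29 on the B6xPWD arrays and at 6.81 (lowest), 6.94 (median) and 7.0 (highest) on the B6xBALB/C arrays, without overlap. Mx2 and Rtp4 had overlapping groups, with limma adjusted p of 0.267 and 0.226 without B6xPWD replicate 3. Mx2 averaged 5.56 in B6xPWD and 4.95 in B6xBALB/C, under the dim filter. In PWDxB6 minus PWDxPWK 12 of the 19 were lower and 0 higher, Bst2, Mx2 and Rtp4 among them, and the difference between the hybrid effects was called for 12, all higher, where 5.15% of all genes were called for that difference, 2.66% higher and 2.49% lower. Bst2, Mx2 and Rtp4 were each higher in PWD than in B6, by 1.06, 2.08 and 1.28. Their means were 7.66, 5.56 and 6.09 in B6xPWD and 7.27, 5.38 and 5.81 in PWDxB6, against 8.12, 7.26 and 7.46 in PWDxPWK. The other largest differences between the hybrid effects were -3.07 for Trim12a, -2.55 for 2610524H06Rik and -2.81 for 1700006J14Rik. Trim12a averaged 7.54 in B6xPWD and 7.46 in PWDxB6, against 7.24 in B6xBALB/C and 4.09 in PWDxPWK. 2610524H06Rik averaged 8.34 in both hybrids, against 8.7 in B6xBALB/C and 6.15 in PWDxPWK. Neither was called in B6xPWD minus B6xBALB/C (limma adjusted p = 0.24 and 0.128). 1700006J14Rik was called here (-1.47, limma adjusted p = 0.0335), with limma adjusted p up to 0.105 when single arrays were left out. It differed by 0.09 from BALB/CxB6.

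Of 13 genes of the MHC and antigen processing, B2m, the light chain of MHC class I (0.67, SE 0.117, limma adjusted p = 0.000978), and H2-Ab1, a chain of class II (0.72, SE 0.122, limma adjusted p = 0.000763), were higher and Cd74 was lower. B2m averaged 9.94 in B6xPWD, 10.08 in B6 and 10.17 in PWD, against 9.27 in B6xBALB/C and 9.4 in BALB/CxB6. In the same order Cd74 averaged 6.19, 5.35 and 6.32, against 7.0 and 7.3. H2-Ab1 averaged 7.17, above B6 at 6.34 and PWD at 6.9, against 6.45 and 6.4. Of 12 macrophage genes 1, H2-Ab1, was higher and 1, Cd74, lower. The share called was 23.1% in the MHC list and 16.7% in the macrophage list, against 9.3% of all genes. The mean of the macrophage list ran from -0.09 to 0.11 on the B6xPWD arrays and from -0.11 to 0.07 on the B6xBALB/C arrays. Of 20 genes of DNA damage and apoptosis 2 were higher, Pmaip1 and Ccng1, a p53 target (0.39, limma adjusted p = 0.0211, and 0.104 without B6xPWD replicate 2). The share called was 10%, against 9.3% of all genes. With B6xBALB/C replicates 1 to 3 alone 1 was higher and 0 lower, and with replicates 4 to 6 alone 4 and 2.

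Of 17 genes of the retinoic acid pathway, which starts meiosis, 0 were higher and 3 lower, where 3.53% of all genes were lower: Cyp26b1, the enzyme that degrades retinoic acid (-0.61, limma adjusted p = 0.0220), and the receptors Rara (-0.51, limma adjusted p = 0.0132) and Rxra (-0.30, limma adjusted p = 0.0202). The groups of each did not overlap, but without B6xPWD replicate 2 the limma adjusted p was 0.103, 0.0697 and 0.0837, and 0 of the 17 were called with B6xBALB/C replicates 1 to 3 alone. Of 23 genes of Notch and Tgfb signalling 3 were higher, Hey1 (0.53), a Notch target, Smad3 (0.50) and Tgfbr1 (0.38), and 3 lower, Tgfb1 (-0.84), Notch1 (-0.72) and Tgfb3 (-0.72). The share called was 26.1%, against 9.3% of all genes. With B6xBALB/C replicates 1 to 3 alone 3 were higher and 2 lower, and with replicates 4 to 6 alone 2 and 5. Without B6xPWD replicate 2 the limma adjusted p was 0.0971 for Tgfbr1 and 0.0537 for Notch1, and without replicate 1 it was 0.0505 for Tgfb3.

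Few markers of somatic cells were called, but several lists leaned lower. Differences were above 0 for 3 of 15 peritubular and stromal, 3 of 15 endothelial, 3 of 12 Leydig and 3 of 19 stress genes. Their medians were -0.25, -0.11, -0.14 and -0.2, and their list means overlapped between the groups. Of the Sertoli and macrophage genes 10 of 24 and 7 of 12 were above 0, and of all genes 47.7%. The share called was 8.33% in the Sertoli list, 13.3% in the peritubular and stromal list and 10.5% in the stress list, against 9.3% of all genes. Of 24 Sertoli cell genes 1 was higher and 1 lower. Cst9, a cystatin of Sertoli cells, stood at 12.20, 12.14 and 11.85 on the B6xPWD arrays, against 10.26 (lowest), 10.66 (median) and 11.07 (highest) on the B6xBALB/C arrays. The difference was 1.38 (SE 0.178, limma adjusted p = 3.83e-05), and 0.78 (limma adjusted p = 0.0519) from BALB/CxB6. Espn, an actin-bundling protein of Sertoli cell junctions, was lower (-0.53, limma adjusted p = 0.0121, and 0.0649 without B6xPWD replicate 3). Of 15 peritubular and stromal genes Mgp was higher (0.66, limma adjusted p = 0.0101, and 0.0971 without B6xPWD replicate 2) and Pdgfrb lower (-0.44, limma adjusted p = 0.0335, and 0.158 without replicate 3). Of 12 Leydig, 15 endothelial, 2 red blood cell and 6 control genes 0 were called. The mean of the control list ran from 0.12 to 0.14 on the B6xPWD arrays and from -0.04 to 0.04 on the B6xBALB/C arrays, without overlap. Of 19 genes of dissociation stress Ier3 was higher (0.90, limma adjusted p = 0.0244, and 0.234 without B6xPWD replicate 2) and Myc lower (-0.41, limma adjusted p = 0.0397, and 0.178 without replicate 3).

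Genes of energy metabolism and translation, grouped by symbol after the values were seen, lay higher in B6xPWD. Of 95 genes of the respiratory chain and ATP synthase, assembly factors included, 32 were higher (33.7%) and 0 lower, where 5.77% of all genes were higher and 3.53% lower, and 87 differences were above 0 (median 0.38). Atp5k, a subunit of ATP synthase, differed by 0.76 (limma adjusted p = 0.0224), and the X-linked Ndufa1, a subunit of complex I, by 1.00 (limma adjusted p = 0.00546). Without B6xPWD replicate 2 the limma adjusted p was 0.126 for Atp5k and 0.0519 for Ndufa1. Of 28 cytosolic ribosomal protein genes 12 were higher and 0 lower (median 0.41), with Rps2 at 0.67 and Rpl34 at 0.75 (limma adjusted p = 0.00235 and 0.0108). Without B6xPWD replicate 2 the limma adjusted p of Rpl34 was 0.0738. Of 37 proteasome genes 9 were higher (24.3%) and 0 lower, and of 42 collagens 0 were higher and 4 lower, against the same shares of all genes.

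These families moved together on single arrays. The mean of the respiratory chain family, relative to all arrays, was 0.47, 0.49 and 0.11 on the B6xPWD arrays, against -0.23 (lowest) to 0.03 (highest) on the B6xBALB/C arrays, and -0.07, 0.00 and 0.43 on the BALB/CxB6 arrays. Ribosomal protein genes had means of 0.51, 0.49 and 0.19 on the B6xPWD arrays, against -0.27 (lowest) to 0.04 (highest) on the B6xBALB/C arrays. BALB/CxB6 replicate 3 stood at 0.47, apart from its fellow arrays at -0.04 and 0.13. Against BALB/CxB6, 2 of the 95 respiratory chain genes and 2 of the 28 ribosomal genes were higher, where 1.11% of all genes were. In the reciprocal hybrid the medians were -0.07 and -0.10. The genes called higher were also shorter: the median span on GRCm38.p6 was 14.3 kb for 849 higher genes and 31.8 kb for 519 lower genes with a span, against 21.7 kb for all genes tested. For X-linked genes it was 13.3 kb for the 90 higher genes, against 22.8 kb for all 474.

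**Figure D5:**
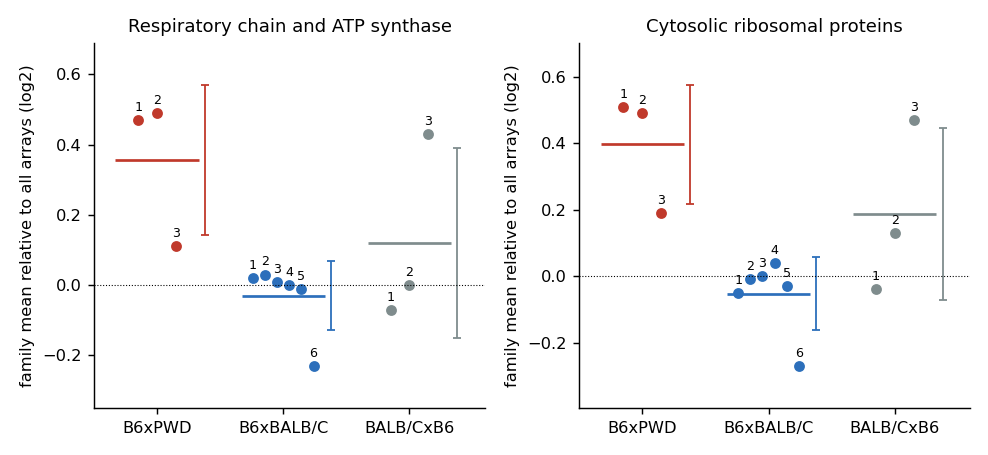
Mean of 95 respiratory chain and ATP synthase genes (left) and 28 ribosomal protein genes (right) on each array, log2 relative to all arrays, for B6xPWD, B6xBALB/C and BALB/CxB6, with points numbered by replicate, lines at group means and bars of 1 SD. B6xPWD replicates 1 and 2 (0.47 and 0.49 on the left) and BALB/CxB6 replicate 3 (0.43) lie above the other arrays.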

How the data were processed

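RNA from isolated spermatogenic cells was hybridised to Affymetrix Mouse Gene 1.0 ST arrays, 1 pool of 4 testes per array, and the authors left out an outlying PWDxPWK array, per the labels. The authors deposited 1 table of 25690 probe sets on 23 arrays, read here as log2 values from their range of 1.17 to 13.96. How the authors corrected background and normalized the arrays is not given in the sources used here. GEO's platform annotation gave 1 symbol for 20777 probe sets, several for 232 and none for 4681, and 20696 had an Entrez ID in RefSeq. Each of 19661 genes was read from its brightest probe set, and the 25% of genes with the lowest mean (log2 under 5.125) were left out.

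The means of 7 genotypes were fitted to all 23 arrays with limma 3.58.1 in R 4.3.3 (16 residual degrees of freedom), with 0.05 as the limit for the p adjusted by Benjamini and Hochberg's method. The procedure was tested on simulated arrays with independent noise in each gene. They lack shifts shared by many genes of an array, so the simulation does not bear on such shifts. The labels leave out whether pools of a cross are of different litters. The p-values therefore cover the spread among pools, which may be technical, and precision is limited by how many arrays there are. Of the 3 correlations between same-numbered arrays 1 was under 0.1, so replicate numbers were not taken to pair the arrays. Alternatives changed the dim filter, scaling, probe set choice, variance model, arrays fitted, control arrays, control cross, a pachytene covariate, a replicate block and each array in turn. The text names the 12 largest rises and 12 largest falls without overlap, the 5 largest such rises and falls on the X, the 5 clearest in both hybrid comparisons, up to 3 per gene list, Prdm9, the Y-linked genes and the 3 largest differences between hybrid effects each way. Others were named after their values were seen. The members and gene lists were chosen with earlier results of these data known.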

Additional observations from a re-analysis of the deposited data

Results flagged for a closer look

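Among 139 sets of 6 B6xBALB/C values tested with Dixon's criterion, 12 had 1 value far from the others, where chance gives about 1 in 20. Replicate 6 was the highest array for Scn3b (5.14), Plbd1 (8.16), Tgfbi (8.46) and Tgfb3 (9.01) and the lowest for Magea6 (4.78). It also had the lowest mean of the spermatid list (-0.20) and the highest means of the Leydig cell list (0.44) and the Notch and Tgfb list (0.21). Replicate 3 was the highest array for 1700013H16Rik (7.33) and Tex11 (10.07) and the lowest for Mgp (7.13), and replicate 1 was the lowest for Uty (7.49).

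For 45 of the genes named in the report, B6xPWD minus B6xBALB/C differed from PWDxB6 minus PWDxPWK by limma's test of the difference between these effects. Over all tested genes 5.15% were called for it. The first effect exceeded the second by 3.42 for Lgals3bp, 2.73 for Kcnc2, 2.57 for Gask1a, 2.48 for Mx2, 2.41 for Rps3a1, 2.34 for Magea5, 2.30 for Nnat, 2.11 for Scn3b and 2.07 for Rtp4. By the same measure it was 1.96 for Gm14403, 1.83 for Cd63, 1.82 for Serpini1, 1.66 for Cadps, 1.57 for Bst2, 1.44 for Cst9, 1.29 for Atp5k, 1.14 for Rhox13 and 1.06 for Rpl34. By the same measure it was 0.96 for H2-Ab1, 0.87 for Hey1, 0.86 for Sohlh1, 0.85 for Fmr1nb, 0.78 for Rec8, 0.73 for Tex15, 0.72 for B2m, 0.72 for Smad3, 0.54 for Eif2s3y and 0.53 for Sgce. The difference was negative, with -3.07 for Trim12a, -2.81 for 1700006J14Rik, -2.55 for 2610524H06Rik, -2.51 for Bbox1, -2.48 for Plbd1, -1.66 for Tgfbi, -1.51 for Serpina3a, -1.30 for Tgfb1 and -1.27 for Tgfb3. It was also -1.16 for Tmem267, -1.0 for Myc, -0.92 for Mpzl2, -0.91 for Cyp26b1, -0.88 for Mid1, -0.81 for Cyp1b1, -0.76 for Syce1 and -0.61 for Asap2. Many of these genes were named for a large effect here or for this difference, so the count of 45 partly reflects that choice. Each effect is from the hybrid's own control, so a difference between effects need not mean unlike levels in the 2 hybrids. Kcnc2, for one, averaged 7.26 in B6xPWD and 7.08 in PWDxB6.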

How the results depend on the processing

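The direction of 6 of the 75 called genes chosen by the naming rule changed with BALB/CxB6 as the control, where the difference was 0.03 for Nup210l, -0.01 for Sohlh1, 0.11 for Mdc1, 0.28 for Spata16, 0.02 for Dnah1 and 0.09 for 1700006J14Rik. Another 35 lost their call there, and 31 kept it in every alternative that tested them. The cause was not tested. Genes called numbered 272 with BALB/CxB6 as the control, 4953 with array weights (B6xPWD replicate 2 had a weight of 4.64) and 2271 with the pachytene covariate, and 570 to 1724 with 1 array left out. X-linked genes called numbered 20 with BALB/CxB6 as the control and 211 with array weights, and 45 to 108 with 1 array left out. Autosomal genes called numbered 247, 4724 and 2149 in the first 3 of these settings, and 517 to 1606 with 1 array left out. Genes with a called difference of hybrid effects numbered 2065 with array weights and 1264 with the pachytene covariate, and 365 to 933 with 1 array left out. Genes higher or lower in both hybrids numbered 45 with the pachytene covariate and 11 with the stricter dim filter, and 8 to 30 with 1 array left out. Genes called here and between the parents in 1 direction numbered 1190 with array weights and 755 with the pachytene covariate, and 234 to 611 with 1 array left out. The X score difference was 0.219 and 0.193 with B6xBALB/C replicates 1 to 3 or 4 to 6 alone (exact permutation p = 0.1, the smallest possible), and 0.151 to 0.242 with 1 array left out. Higher and lower calls numbered 900 and 824 without B6xBALB/C replicate 6. With the replicate block they numbered 672 and 754, or 1426 in all, and 19 of the 75 named calls were lost. Arrays with the same number correlated at 0.263, 0.094 and 0.199, and each correlated best with its own number, which is a hint from the data and not the design.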
